A study of Homo sapiens with 6 samples.

Results

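The TCF/LEF factors and their cofactors were examined as 10 genes, TCF7, TCF7L1, TCF7L2, LEF1, TLE1, TLE2, TLE3, BCL9, PYGO2 and CTBP1, taken as every probe of the intensity table whose target name is one of them. They are 10 of 42764 target names, and have 15 of the 48701 probes of the table, 5 for TCF7, 2 for CTBP1 and 1 for each of the other genes. Expression was measured on Illumina bead arrays in HEK293 cells, an established line from human embryonic kidney, transfected with SNRK-pEGFPN3, a plasmid that codes for human SNRK fused to a green fluorescent protein tag, or with the vector pEGFPN3, which codes for the tag without SNRK. Both groups were treated with Lipofectamine and Plus Reagent and harvested at 48 hours, with 3 arrays in each group, named SNRK 1 to 3 and GFP 1 to 3. Whether the replicates were separate cultures is not in the labels, so p-values cover the spread from array to array, which may be technical. The comparison sets added SNRK, a kinase of the family of AMP-activated protein kinase, against the vector.

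TCF/LEF proteins are the DNA-binding factors at the end of the Wnt pathway. Without beta-catenin they are held in a repressing state by Groucho/TLE corepressors, and CtBP proteins are a further class of corepressor at such genes. When beta-catenin enters the nucleus it binds TCF/LEF factors and recruits BCL9, which in turn binds the PHD finger protein Pygopus, and transcription of target genes begins.

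TCF/LEF factors recognise DNA with the core letters CTTTG, and TCF7 and LEF1 are themselves known Wnt targets. The windows of the TCF7L2 and TCF7 genes are shown because these were the factor genes with a probe that rose, a choice made from the values. Each is the 250 bases before an annotated start in RefSeq on GRCh38.p14, 5′ to 3′ on the strand of the gene, in lower case with CTTTG, or CAAAG where the core lies on the opposite strand, in capitals.
TCF7L2 upstream start, chr10:112949997-112950246, plus strand: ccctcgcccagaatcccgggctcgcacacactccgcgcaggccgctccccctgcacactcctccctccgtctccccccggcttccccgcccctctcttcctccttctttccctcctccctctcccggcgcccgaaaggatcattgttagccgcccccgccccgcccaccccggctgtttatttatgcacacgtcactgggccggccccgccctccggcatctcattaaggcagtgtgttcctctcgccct
TCF7L2 middle start, chr10:113126383-113126632, plus strand: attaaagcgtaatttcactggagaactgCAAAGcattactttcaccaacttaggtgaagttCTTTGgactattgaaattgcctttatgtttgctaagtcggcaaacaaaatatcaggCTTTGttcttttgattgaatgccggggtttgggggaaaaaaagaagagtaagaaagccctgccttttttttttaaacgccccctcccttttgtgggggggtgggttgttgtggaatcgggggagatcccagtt
TCF7L2 downstream start, chr10:113129021-113129270, plus strand: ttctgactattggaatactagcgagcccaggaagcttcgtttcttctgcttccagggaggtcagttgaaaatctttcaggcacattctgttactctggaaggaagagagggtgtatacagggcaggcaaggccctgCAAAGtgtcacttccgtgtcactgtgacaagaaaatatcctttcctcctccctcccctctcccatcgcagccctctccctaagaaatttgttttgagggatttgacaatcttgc
TCF7 upstream start, chr5:134115363-134115612, plus strand: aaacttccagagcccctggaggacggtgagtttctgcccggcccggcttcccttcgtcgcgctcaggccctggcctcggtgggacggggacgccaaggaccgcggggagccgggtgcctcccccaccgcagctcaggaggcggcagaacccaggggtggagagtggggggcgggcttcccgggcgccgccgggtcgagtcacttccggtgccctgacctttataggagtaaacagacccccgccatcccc
TCF7 downstream start, chr5:134123368-134123617, plus strand: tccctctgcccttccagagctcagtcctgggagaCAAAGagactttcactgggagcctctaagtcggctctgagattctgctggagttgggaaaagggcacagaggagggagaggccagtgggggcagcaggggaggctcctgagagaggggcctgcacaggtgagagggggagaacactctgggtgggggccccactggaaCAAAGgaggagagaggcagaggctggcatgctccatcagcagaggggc
The upstream TCF7L2 window holds no core, the middle one holds 3 and the downstream one holds 1. Of the TCF7 windows the upstream one holds none and the downstream one holds 2. The LEF1 window, not shown, holds 1. Among all 18 windows of the 10 genes, all of which have an entry, 6 hold the core, and so do 42.1% of all 35116 windows in RefSeq. Of those 35116 windows, 2.83% hold 3 or more cores, a cutoff equal to the count in the middle TCF7L2 window. That share takes no account of base content, so it does not show the window to be unusual. The middle and downstream TCF7L2 windows have 42.4% and 48.4% G and C, and the upstream one has 68%. The letters describe these windows only, and a match is not a binding site. Probe sequences were not used, so which of these starts the TCF7L2 and TCF7 probes read is not known.

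The check of the transfected gene came first. SNRK probe ILMN_1794399 read 485, 460.2 and 458 on SNRK arrays, against 349.9, 382 and 372 on GFP arrays, a log2 change of 0.44 ± 0.09 (SE, limma adjusted p = 0.0219), and the call was lost without SNRK 1, GFP 1 or GFP 2. With the authors' values the SNRK change was 0.29. Whether the probe lies within the SNRK sequence of the plasmid was not tested, so how far it measures the overexpression is not known. Between 15732 and 16190 probes were detected per SNRK array (detection p under 0.01), against 15133 to 15685 per GFP array. Of 8 marker genes set for HEK293, 6 (NEFL, NEFM, VIM, KRT8, KRT18 and CDH2) were detected on all arrays. Of T cell markers 0 of 5 were, and 1 gene was for each of the endothelial, fibroblast, monocyte or macrophage and hepatocyte lists (PECAM1, COL3A1, CD68 and ALB).

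Of the 15 probes, 12 were kept for testing because they were detected on all 3 arrays of at least 1 group, and they cover 9 of the 10 genes. Probes of TCF7L2, TCF7, TLE3, PYGO2 and CTBP1 rose in SNRK cells, 1 for each gene, 0 fell and 7 did not pass. In these bulk samples a change in the number of cells that express a gene and a change in RNA per cell cannot be told apart. Over all 14964 kept probes 12.9% passed (limma, Benjamini-Hochberg adjusted p under 0.05), 6.88% higher and 6.06% lower. The groups did not overlap at 7 of the 12 probes, 6 of them higher in SNRK cells, where 36.4% of all kept probes did not overlap, 18.6% with SNRK higher and 17.8% with SNRK lower. The median log2 change was 0.28 over the 12 probes and 0.0037 over all kept probes. Of the 12, the TCF7 and TCF7L1 probes were kept through the SNRK arrays alone, since they were not detected on every GFP array, so these counts and medians describe the kept probes and support no statement about the genes as a set. Only TCF7L2 passed when SNRK 1, SNRK 2, GFP 1 or GFP 2 was left out, 1 probe in each case.

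**Figure D1:**
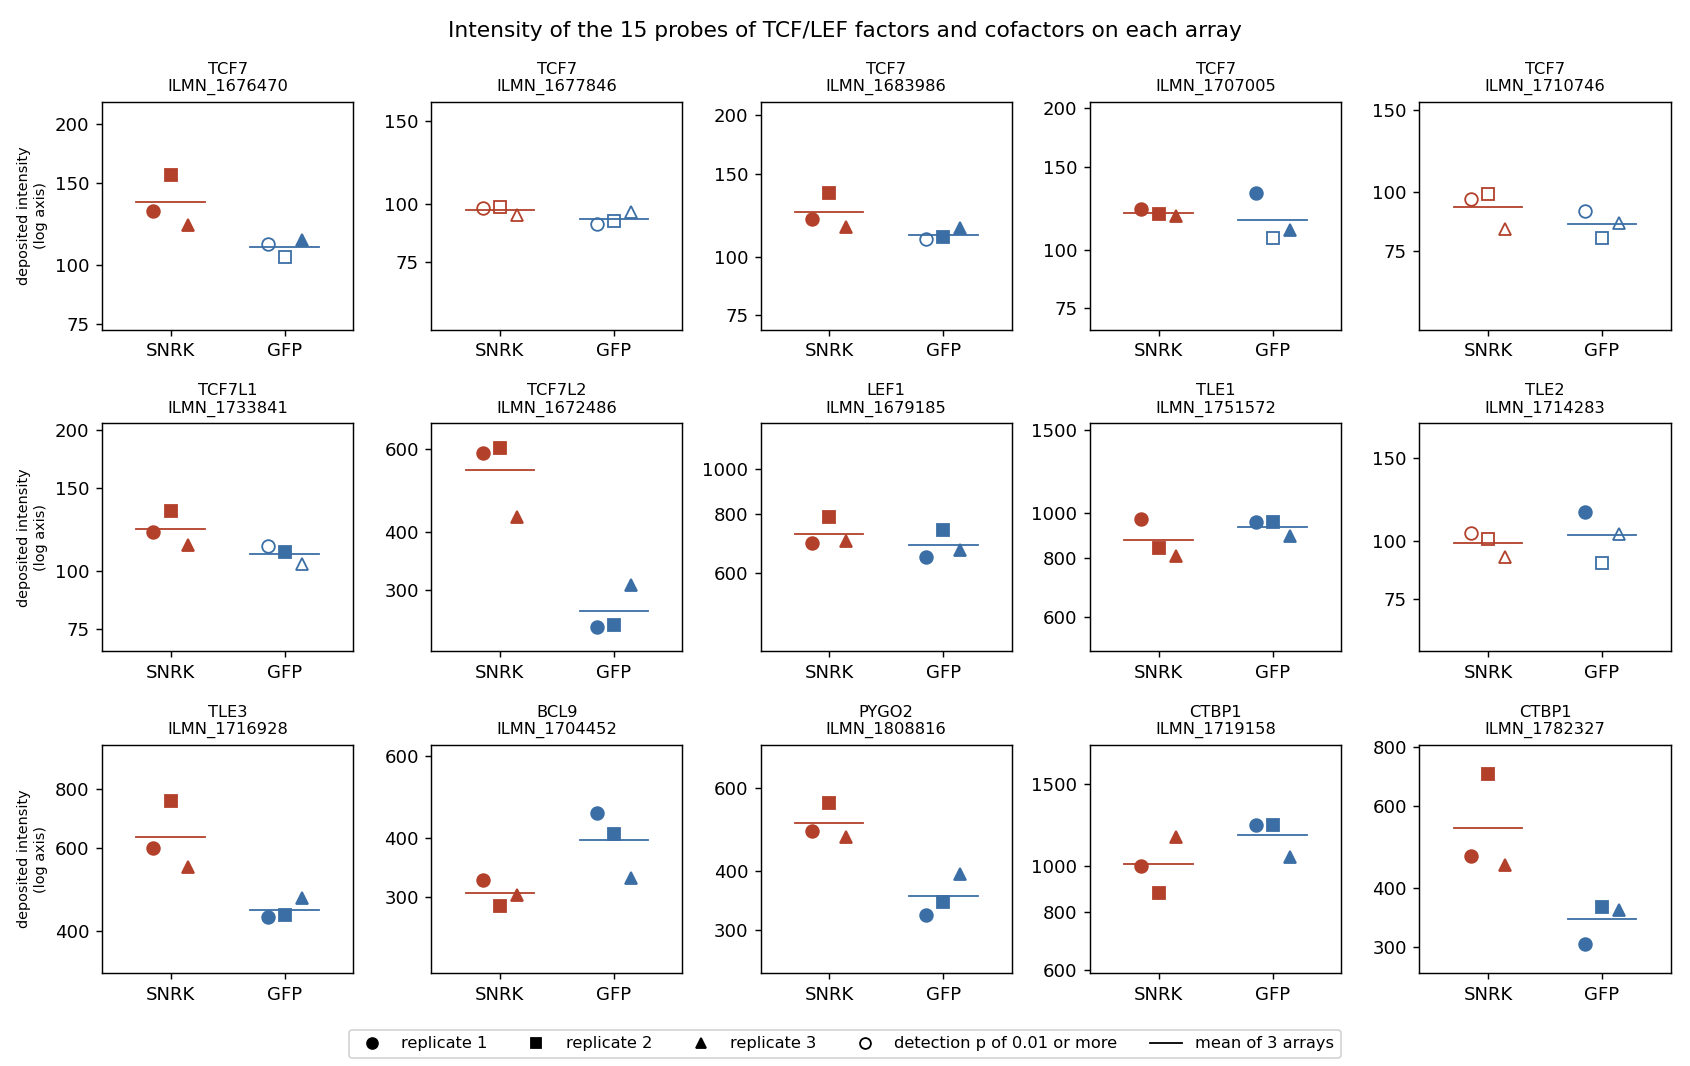
Deposited intensity (log axis) of the 15 probes on each array, with SNRK arrays in red at the left and GFP arrays in blue at the right of each panel; open symbols mark a detection p of 0.01 or more and bars the mean of 3 arrays. TCF7L2 read 429 to 604 on SNRK arrays, against 250.2 to 309 on GFP arrays.

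Among the DNA-binding factors, TCF7L2 had the largest log2 change, as it did among all 12 kept probes. TCF7L2, also called TCF-4, is the main partner of beta-catenin in the intestinal epithelium. Its probe ILMN_1672486 read 590.0, 604 and 429 on SNRK arrays, against 250.2, 252 and 309 on GFP arrays. All SNRK arrays lay above all GFP arrays, with SNRK 3 and GFP 3 nearest to each other. The normalised log2 level was 8.86 ± 0.32 in SNRK cells and 7.61 ± 0.28 in GFP cells (SD, n = 3 arrays each), a rise of 2.39-fold with a 95% interval from 1.77 to 3.21 (log2 change 1.25 ± 0.19 SE, limma adjusted p = 0.00821). By size of rise the probe ranked 28 of the 14964. It passed in each of 15 alternative fits, with adjusted p between 0.000902 and 0.0471 and log2 changes from 1.15 to 1.44 when 1 array was left out. With the authors' processed values in place of the background-corrected intensities the log2 change was 0.77.

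TCF7, known as TCF-1 and best known for its part in T cell development, had 5 probes, of which 3 were kept and 1 rose. ILMN_1676470 read 131, 156 and 122 on SNRK arrays, against 111, 104 and 113 on GFP arrays. It was detected on 3 SNRK arrays and 1 GFP array, and its groups did not overlap. It rose by 0.63 ± 0.17 (SE) on the log2 scale after background correction, 1.55-fold with a 95% interval from 1.19 to 2.01 (limma adjusted p = 0.0430). That size is set against GFP arrays of which only GFP 3 passed detection, and the probe was tested only because it was detected on the SNRK arrays. The change was 0.25 without background correction and 0.12 with the authors' processed values, neither called (adjusted p = 0.0595 and 0.117). ILMN_1683986 read 120.1, 137 and 116 on SNRK arrays, against 109, 109.8 and 115 on GFP arrays, with a log2 change of 0.25 ± 0.15 (adjusted p = 0.290). ILMN_1707005 read 122, 119 and 118 on SNRK arrays, against 132, 106 and 110.0 on GFP arrays, with a log2 change of -0.02 ± 0.16 that did not pass and a 95% interval from -0.40 to 0.36. At both of these the groups overlapped at the normalised level, and GFP 1 was the highest array at the last. The test of each probe against the other probes of its gene did not pass for any of the 3 (limma diffSplice adjusted p = 0.158, 0.901 and 0.202). The remaining TCF7 probes, ILMN_1677846 and ILMN_1710746, were detected on 0 arrays and read 83.4 to 99.2 on SNRK arrays, against 80.1 to 96.1 on GFP arrays. The called TCF7 probe lost its call without SNRK 1, SNRK 2, GFP 1 or GFP 2 (log2 changes 0.71, 0.45, 0.58 and 0.56, adjusted p from 0.0736 to 0.149).

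TCF7L1, or TCF-3, acts mostly as a repressor in embryonic stem cells. Its probe ILMN_1733841 read 121, 134 and 114 on SNRK arrays, against 113, 109.8 and 104 on GFP arrays, and it was detected on 3 SNRK arrays and 1 GFP array. The groups were apart only narrowly, by SNRK 3 over GFP 1 in intensity and by SNRK 3 over GFP 2 at the normalised log2 level (5.36 against 5.28). The log2 change was 0.30 ± 0.12 (SE) with a 95% interval from 0.04 to 0.57, and it did not pass after adjustment (limma adjusted p = 0.117).

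LEF1, the lymphoid enhancer factor that gives the family its second name, read 694, 788 and 702 on SNRK arrays, against 648, 741 and 674 on GFP arrays. The groups overlapped, with GFP 2 above SNRK 1 and SNRK 3. Its log2 change was 0.14 ± 0.10 (SE) and did not pass, with a 95% interval from -0.09 to 0.37 (limma adjusted p = 0.384).

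TLE3, a Groucho corepressor, read 599.8, 755 and 547 on SNRK arrays, against 428, 432 and 469 on GFP arrays. All SNRK arrays lay above all GFP arrays, SNRK 2 furthest. TLE3 rose 1.53-fold with a 95% interval from 1.21 to 1.92 (log2 change 0.61 ± 0.14 SE, limma adjusted p = 0.0314). TLE1, a further Groucho corepressor, read 969, 843 and 811 on SNRK arrays, against 957, 956 and 892 on GFP arrays. The groups overlapped, since SNRK 1 was the highest array of all 6, and the log2 change was -0.07 ± 0.10 with a 95% interval from -0.29 to 0.16 (adjusted p = 0.667). TLE2, of the same family, read 104, 100.6 and 92.3 on SNRK arrays, against 115, 89.6 and 104 on GFP arrays, was detected only on GFP 1 and was not tested. The TLE3 call was lost without SNRK 1, SNRK 2, GFP 1 or GFP 2 (log2 changes 0.65, 0.46, 0.56 and 0.58, adjusted p from 0.0532 to 0.120).

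CTBP1, a corepressor that senses NADH, was measured by probes that differed from each other. ILMN_1782327 read 469.9, 700.3 and 448 on SNRK arrays, against 305, 365 and 360.1 on GFP arrays. All SNRK arrays were higher, with SNRK 2 far above the other two. This probe rose 1.71-fold with a 95% interval from 1.24 to 2.36 (log2 change 0.78 ± 0.20 SE, limma adjusted p = 0.0411). ILMN_1719158 read 1000.3, 876 and 1157 on SNRK arrays, against 1227, 1227 and 1048 on GFP arrays. Here the groups overlapped, SNRK 2 was the lowest array, and the log2 change was -0.19 ± 0.11 (adjusted p = 0.291). The changes at the CTBP1 probes differed by 0.96 on the log2 scale (limma diffSplice adjusted p = 0.0390), a test passed by 8.06% of the 3240 probes of genes with several kept probes. For a gene with a pair of kept probes this is a single contrast, counted at both probes. The CTBP1 difference was called in the fit without SNRK 3 but not without any other single array. The rise of ILMN_1782327 was lost without SNRK 1, SNRK 2, GFP 1, GFP 2 or GFP 3 (log2 changes 0.88, 0.54, 0.65, 0.82 and 0.86). Probe sequences were not used here, so which CTBP1 transcripts each probe reads is not known.

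The coactivators on the beta-catenin side were PYGO2, which rose, and BCL9, which did not pass. PYGO2, the Pygopus protein that reads methylated histone H3 through its PHD finger, read 487, 558 and 472 on SNRK arrays, against 323, 344 and 394 on GFP arrays. All SNRK arrays were higher, and GFP 3 was the highest GFP array. PYGO2 rose 1.56-fold with a 95% interval from 1.26 to 1.93 (log2 change 0.64 ± 0.14 SE, limma adjusted p = 0.0237). BCL9, the adaptor that joins Pygopus to beta-catenin, read 326, 288 and 302 on SNRK arrays, against 454, 408 and 329 on GFP arrays. All SNRK arrays were lower, SNRK 1 and GFP 3 by a narrow margin. The log2 change of BCL9 was -0.47 ± 0.14 with a 95% interval from -0.79 to -0.16, which missed the threshold (limma adjusted p = 0.0565), and it passed as lower in 7 of 15 alternative fits, among them the one without GFP 3 (log2 change -0.60, adjusted p = 0.0265). With the authors' values the PYGO2 change was 0.42 and that of BCL9 -0.27, both called. The PYGO2 call was lost without SNRK 1, SNRK 2, GFP 1 or GFP 2 (log2 changes 0.67, 0.56, 0.54 and 0.61, adjusted p from 0.0580 to 0.0970).

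**Figure D2:**
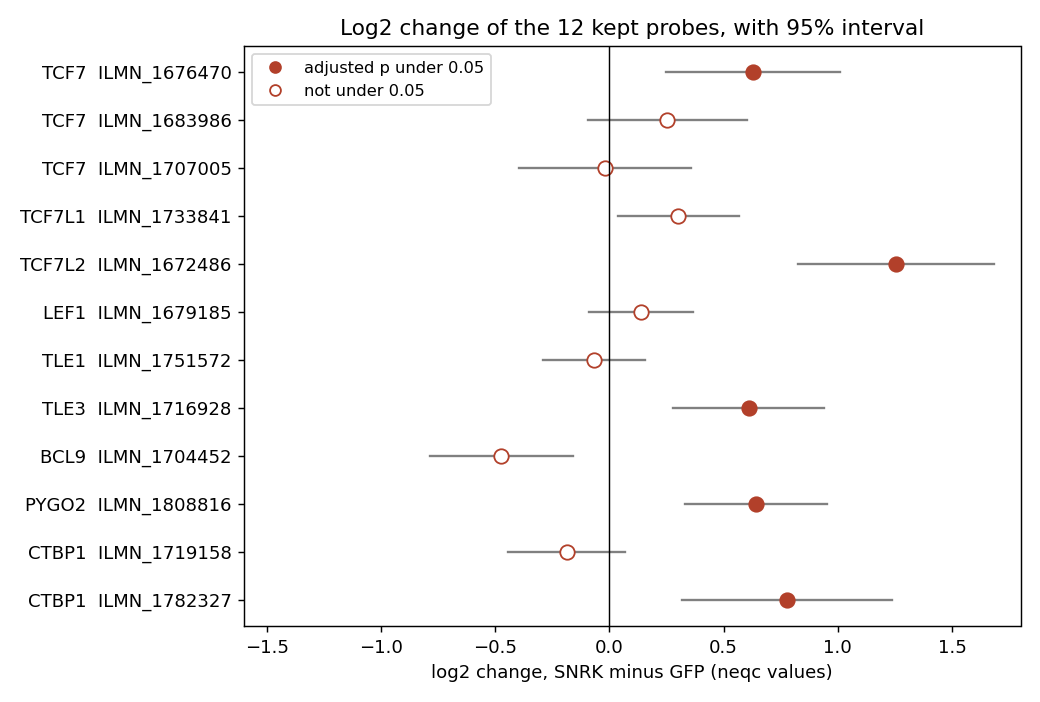
Log2 change, SNRK minus GFP, of the 12 kept probes with the 95% interval of the limma fit as a line; filled points have an adjusted p under 0.05. TCF7L2 stands at 1.25, the other called probes between 0.61 and 0.78, and BCL9 at -0.47.

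The called probes shared an order of arrays within the groups. At all 5 probes that rose, SNRK 2 had the highest and SNRK 3 the lowest normalised level among SNRK arrays, and GFP 3 had the highest among GFP arrays. Over the 1030 probes of the whole table that rose, the same held for 64%, 61.1% and 73.7%. The part of these arrays in the changes was not tested beyond leaving each out.

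**Figure D3:**
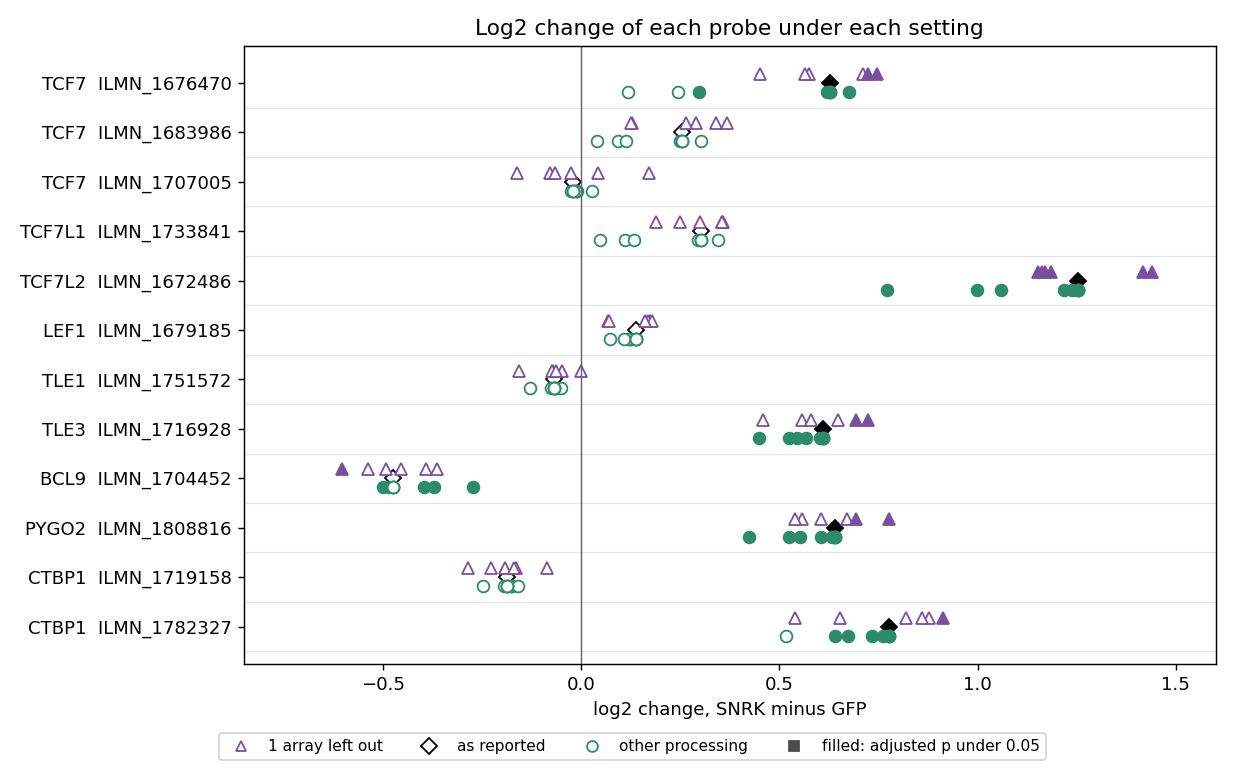
Log2 change, SNRK minus GFP, of each kept probe as reported (diamonds), with 1 array left out (triangles) and under other processing (circles); filled symbols have an adjusted p under 0.05. TCF7L2 is filled throughout, whereas TCF7, TLE3, PYGO2 and CTBP1 turn open under several settings and BCL9 is filled in 7.

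Other nuclear cofactors of the pathway included relatives of the genes above. Of 29 measured genes of this list, TLE5 and CTBP2 rose and 0 fell, 6.9%, against 13.2% of all 10072 named genes (7.44% higher and 5.76% lower, each gene by its brightest kept probe). TLE5, a short Groucho relative that lacks the WD repeats, read 1119, 1115 and 1139.8 on SNRK arrays, against 890.1, 912 and 939.8 on GFP arrays, and rose by 0.36 ± 0.09 (SE) on the log2 scale (limma adjusted p = 0.0316). CTBP2, the paralogue of CTBP1, read 294, 321 and 272 on SNRK arrays, against 254, 235 and 241 on GFP arrays, and rose by 0.37 ± 0.09 (adjusted p = 0.0330). At both genes the groups did not overlap. For BCL9L, the paralogue of BCL9, detected on 1 of 3 GFP arrays, the log2 change was 0.45 (adjusted p = 0.0506). For PAF1, of the polymerase-associated factor complex, it was -0.40 (adjusted p = 0.0574). CTNNB1, the gene of beta-catenin, was read by a pair of kept probes with log2 changes of 0.26 and 0.15 (adjusted p = 0.315 and 0.572), the first of which passed without SNRK 3 (0.45, adjusted p = 0.0421). The median log2 change was 0.08 in this list and -0.0023 over all named genes. Both calls were lost without SNRK 1, SNRK 2, GFP 1 or GFP 2, that of CTBP2 also without GFP 3, and 6 genes passed without SNRK 3. With the authors' values the CTBP2 change was 0.19 and still called.

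Of 38 measured target genes of TCF and beta-catenin, 3 rose, 2 fell and 33 did not pass, 13.2%, the same share as among all named genes. TWIST1, a transcription factor of mesenchymal cells, read 632, 696 and 578 on SNRK arrays, against 421, 447 and 424 on GFP arrays. Its groups were well apart, and it rose by 0.68 ± 0.10 (SE) on the log2 scale (limma adjusted p = 0.00769) and passed in all 15 alternative fits. PPARD, a lipid-sensing nuclear receptor, had a log2 change of 0.94 ± 0.17, SOX9, a factor of progenitor cells, had 0.37 ± 0.09, and FGF18, a secreted growth factor, had -0.76 ± 0.14 (adjusted p = 0.0138, 0.0301 and 0.0145). NKD2, a Wnt inhibitor named after its values were seen, was the other that fell, with -0.40 (adjusted p = 0.0333). With the authors' values the changes were smaller but still called, at 0.30 for PPARD, 0.19 for SOX9 and -0.24 for FGF18, and without background correction they were 0.51 for PPARD and -0.42 for FGF18. The calls of these 4 genes were lost without SNRK 1, GFP 1 or GFP 2, and those of SOX9 and NKD2 also without SNRK 2. AXIN2, a widely used readout of the pathway, read 443, 458 and 443 on SNRK arrays, against 503, 510.3 and 411 on GFP arrays. AXIN2 had a log2 change of -0.08 ± 0.10 and CCND1, a cyclin gene, -0.05 ± 0.09, neither past the threshold (adjusted p = 0.618 and 0.724). MYC had -0.35 ± 0.14 (adjusted p = 0.123), and passed as lower without SNRK 3 (-0.50, adjusted p = 0.0212). The list's median log2 change was 0.05. Without SNRK 1, GFP 1 or GFP 2 only 1 target gene passed, without SNRK 2 there were 3, and without GFP 3 there were 8.

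Of 17 measured partners of CtBP and the CoREST repressor complex, RCOR1 and CTBP2 rose and 0 fell, 11.8%. Among all named genes the share was 13.2%, with 7.44% higher and 5.76% lower. RCOR1, the CoREST scaffold, read 142, 151 and 125 on SNRK arrays, against 111, 111 and 116 on GFP arrays, of which 2 passed detection. The groups did not overlap, and RCOR1 rose by 0.60 ± 0.14 (SE) on the log2 scale (limma adjusted p = 0.0314). RCOR1 was tested only because all 3 SNRK arrays detected it, so its call and its place in the count rest on that filter. With detection on all 6 arrays required, 1 gene of the list passed. The RCOR1 change was 0.24 without background correction, and with the authors' processed values it was 0.12 and did not pass. EHMT1, a histone H3 methyltransferase, had 0.53 and RREB1, a zinc finger factor, 0.42 (adjusted p = 0.0628 and 0.0614). The list's median was 0.02. No gene of the list passed without SNRK 1, SNRK 2, GFP 1 or GFP 2, and 5 passed without SNRK 3.

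Of 21 measured DNA-binding factors known to recruit Groucho/TLE proteins, 3 rose and 0 fell, 14.3%, close to the 13.2% of all named genes. Of all named genes 7.44% were higher and 5.76% lower. EN2 and SIX2 are described here. EN2, an engrailed homeobox factor of the midbrain and hindbrain, read 303, 353 and 327 on SNRK arrays, against 242, 229 and 231 on GFP arrays, and rose 1.56-fold (log2 change 0.64 ± 0.09 SE, limma adjusted p = 0.00774). Its groups did not overlap, and it passed in all 15 alternative fits, at 0.33 with the authors' values. SIX2, a factor of nephron progenitors, was detected on 3 SNRK arrays and on 0 GFP arrays. It was tested only because the SNRK arrays detected it, so its call and its place in the count rest on that filter. With detection on all 6 arrays required, 2 genes of the list passed. Its rise is given as a bound, at least 1.26-fold in SNRK cells on the background-corrected scale (limma adjusted p = 0.0272). The bound uses, for each GFP array, the lowest signal of a detected probe, or that of SIX2 where larger. It compares mean levels, leaves out the spread between arrays and holds for that scale alone. The fitted log2 change was 0.50 ± 0.11 (SE). SIX2 read 128, 129 and 121 on SNRK arrays, against 105, 106 and 109 on GFP arrays. The list's median log2 change was 0.0050. The SIX2 call was lost in 9 of 14 alternative fits, those without SNRK 1, SNRK 2, GFP 1 or GFP 2 among them. Its log2 change of 0.50 was 0.18 without background correction, 0.22 with the maximum likelihood background and 0.08 with the authors' values, none called (adjusted p = 0.0706, 0.0527 and 0.153).

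**Figure D4:**
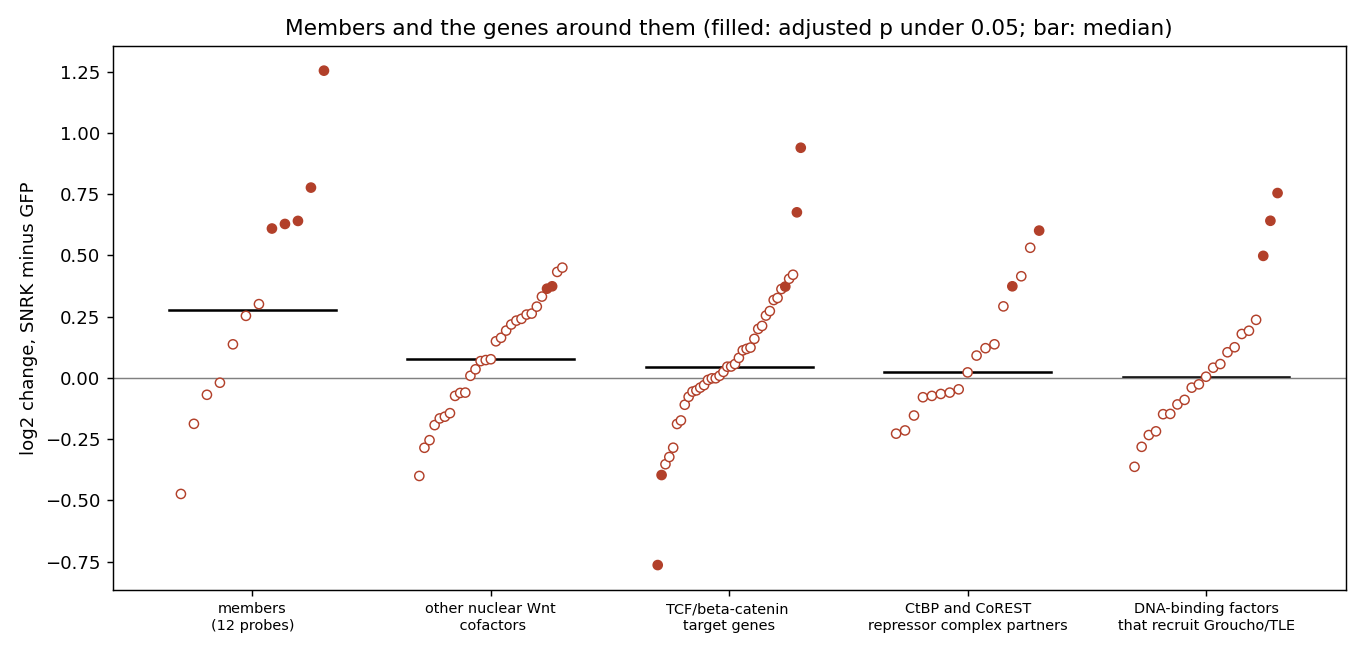
Log2 change, SNRK minus GFP, of the 12 kept member probes and of the genes of 4 lists, each gene by its brightest kept probe and sorted within a list; filled points have an adjusted p under 0.05 and bars are medians. The medians of the 4 lists lie between 0.0050 and 0.08.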

How the data were processed

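Transcript levels were measured in 3 SNRK and 3 GFP arrays. For 48701 probes on 6 arrays, the authors deposited an intensity, linear and not normalized between arrays, together with its detection p-value, per the file headers. A second deposited table holds intensity values normalized by the authors, as whole numbers with equal column medians. The submitters' processing notes name lumi. Its steps, the scanner software and any background step are not stated.

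Intensities were corrected, quantile normalized and put on a log2 scale with neqc in limma 3.58.1 (R 4.3.3, offset 16). Probes with detection p under 0.01 on all 3 arrays of a group were kept. All 14964 kept probes entered 1 linear model of group, with two-sided moderated tests and Benjamini-Hochberg adjustment, and "rose" or "fell" means an adjusted p under 0.05. Probes of a gene were compared with diffSplice over 3240 probes. Targets were named by current symbol (18810 probes) or an older symbol (2810) through RefSeq GRCh38.p14. Array number limits precision.

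The members and lists were chosen with earlier results of these data known. All member probes are named, and from each list the 4 genes with the smallest p, with AXIN2, MYC, CCND1, CTNNB1 and SNRK. Some genes that this rule names are not reported here. The alternatives changed the background step (left out, or maximum likelihood with offset 50), the scaling (median, cyclic loess or the authors' values) and the detection rule (none, or all 6 arrays). Others used a replicate block, trend with robust moderation, 5 of the arrays, or the mean of a gene's probes for lists.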

Additional observations from a re-analysis of the deposited data

How the results depend on the processing

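The 12 kept probes, with up to 15 alternative fits each, gave 176 combinations of probe and fit. Of these, 139 kept their direction and side of the threshold, 27 lost a call, 7 gained one and 3 turned sign. All 3 were TCF7 ILMN_1707005, at 0.029 with median scaling, 0.044 without SNRK 2 and 0.17 without GFP 1, none called, in a range from -0.16 to 0.17 with an array left out. The count of called member probes, 5, was 1 with no detection filter, 2 with the replicate block, and between 1 and 5 with an array left out. TCF7 ILMN_1676470 lost its call without background correction (0.25), with the authors' values (0.12), with no detection filter and with the block (both 0.63), and ranged from 0.45 to 0.75 with an array left out. TLE3 (0.61) and PYGO2 (0.64) lost theirs with no filter and with the block, and ranged from 0.46 to 0.72 and from 0.54 to 0.78. CTBP1 ILMN_1782327 lost it with no filter (0.78) and the authors' values (0.52), and ranged from 0.54 to 0.91. BCL9 was called lower without background correction (-0.37), with the maximum likelihood background (-0.40), median scaling (-0.50), cyclic loess (-0.49), the authors' values (-0.27) and trend (-0.47), and ranged from -0.60 to -0.36. TCF7L2 was called in all 15. The cause of these shifts was not tested.

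The 1937 calls over all probes became 669 with no detection filter and 731 with the replicate block, and 291 to 2712 with an array left out. The count of CTBP1 probes that differed, 2 for the single contrast between them, was 0 with no filter and with the block. It was 0 to 2 with an array left out. Of the cofactor list (2 called), 5 passed without background correction, with the authors' values, with trend and with probe means, 4 with the maximum likelihood background, 0 with no filter and 0 with the block, and 0 to 6 with an array left out. Of the targets (5), 3 passed with no filter, 3 with the block, 9 with probe means, and 1 to 8 with an array left out. Of the CtBP partners (2), 4 passed with median scaling and with trend, 1 when detected on all 6 arrays, 0 with no filter and with the block, and 0 to 5 with an array left out. Same-numbered arrays did not deviate together (correlations -0.06, -0.13 and -0.30), and the numbers were not taken to pair arrays. Deviations were taken from the mean of each group, which pushes some correlations below 0. These values therefore cannot decide whether arrays were paired. Among arrays with different numbers, SNRK 2 with GFP 3 (0.29) and SNRK 3 with GFP 1 (0.27) had the highest correlations. SNRK 2 with GFP 1 had the lowest (-0.21), and the rest lay between -0.02 and 0.09. The cause was not tested. TCF7 and TCF7L1 probes read close to background, and they were not kept when detection on all 6 arrays was required. The SE of those tested was 0.12 to 0.17, against 0.19 at TCF7L2 and a median of 0.10 over all kept probes.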
